A study of Mus musculus with 42 samples.

Results

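How the transcriptional response of mouse macrophages to dexamethasone (Dex) moved on between an early and a later time was measured by taking the Dex effect at 8 h minus the Dex effect at 2 h, gene by gene. A Dex effect is the log2 level in Dex libraries minus the log2 level in vehicle libraries of the same time. Where a gene is given a pair of values without CPM, they are its log2 Dex effects at 2 and 8 h, in that order. The comparison uses 24 of the series' 42 libraries, chosen by title: 6 libraries each of vehicle at 2 h, Dex at 2 h, vehicle at 8 h and Dex at 8 h, and in each of these conditions 3 libraries of WT and 3 of KO cells. WT are unmodified cells and KO are cells that lack MS4A4A, a membrane protein of macrophages, per the series' design text, and the effects are means over both genotypes. All cells were bone marrow-derived macrophages grown for 6 days with M-CSF, detached, replated, and given 1 µM Dex or vehicle the next day. The labels give no age, sex or strain, no account of how the knockout was made, and do not say whether replicates came from separate cultures or animals. The p-values therefore measure the spread between these libraries, which may be technical.

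Dexamethasone is a synthetic glucocorticoid. It binds the glucocorticoid receptor, a nuclear receptor encoded by Nr3c1 that waits in the cytoplasm in a complex with Hsp90 chaperones, then enters the nucleus and binds DNA at glucocorticoid response elements or is tethered to other factors such as AP-1 and NF-kB. Some target genes respond within an hour or so without new protein synthesis, while others need proteins made in the early wave, so that a time course holds both. In macrophages glucocorticoids are known for lowering inflammatory cytokines and for raising scavenger and efferocytosis receptors. Bulk RNA does not tell fewer cells of a type from less RNA per cell.

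The 24 libraries held 20154713 to 33528398 estimated counts (median 28565791) over 11160 genes. Ms4a4a, the gene knocked out (chromosome 19, 11375523 to 11392790, plus strand, protein-coding, GRCm38, GENCODE mouse release 21), stood at 84.8 ± 5.56 CPM (a count scaled to its library's size, mean ± SD, n = 3) in WT and 34.5 ± 3.40 CPM in KO after 2 h of vehicle, and at 72.9 ± 6.61 and 28.9 ± 5.54 CPM after 8 h, so its transcript was lower in KO but not absent. The labels do not say which part of the gene was deleted. The 15 macrophage identity genes summed to 45080 to 60890 CPM in every condition. Fibroblast and stromal markers (8 of 12 measured) summed to at most 25.0 CPM, and of the T and NK, B, dendritic and mast cell lists 1 of 14, 2 of 10, 4 of 10 and 1 of 9 genes were in the table. The 4 dendritic markers summed to 5.38 to 6.93 CPM after 8 h of Dex against 1.81 to 3.71 CPM in the other conditions. Of the 4, Flt3 had a higher Dex effect at 8 h than at 2 h and Ccr7 a lower one. Flt3 held 832 counts in all after 8 h of Dex against 39, 73 and 23 after vehicle at 2 h, Dex at 2 h and vehicle at 8 h. The mast cell marker stood at 1.03 to 3.94 CPM after 8 h of Dex against 4.47 to 13.7 CPM in the other conditions. The 7 measured neutrophil markers summed to 418.5 to 554.3 CPM after 8 h of Dex against 217.9 to 344.3 CPM in the other conditions, and the 13 mitochondrial transcripts to 8222 to 8813 CPM against 6099 to 8310 CPM. Their part in the results was not tested. Most of the neutrophil sum at 8 h was Mmp8, a collagenase (328 to 434 CPM (median 366) after 8 h of Dex), while Csf3r, the G-CSF receptor, was lower there.

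The Dex response was broader at 8 h than at 2 h, and most genes whose effect differed between the times had a larger effect at 8 h. By edgeR's quasi-likelihood test at a Benjamini-Hochberg adjusted p of 0.05, Dex changed 1623 of 11160 genes (14.5%) at 2 h, with 908 higher (8.14%) and 715 lower (6.41%). At 8 h it changed 5829 (52.2%), with 3071 higher (27.5%) and 2758 lower (24.7%). Which direction has more calls at 8 h turned with the scaling, with 2883 higher and 2950 lower under median-ratio scaling. Of the 2 h genes, 1249 were called at 8 h in the same direction (77.0% of the 2 h list and 21.4% of the 8 h list), 94 were called in the opposite direction and 280 were not called. The difference of the effects itself was called for 3458 genes (31.0%), of which 1890 (16.9%) had the higher value at 8 h and 1568 (14.1%) the lower. Of these, 236 were over 2-fold higher and 225 over 2-fold lower. Of the 4486 genes called at 8 h but not at 2 h, 2549 had a difference that was called and 1937 did not, so that a gene listed only at 8 h was not always shown to differ between the times. Across the 11160 genes the effects at 2 and 8 h had a Pearson correlation of 0.69 and a Spearman correlation of 0.477, given as a description since genes are not independent.

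Each called gene was put in a class by its effects at both times, so the classes describe the called genes and carry no test of their own. Effects that appeared at 8 h, called there and not at 2 h, made up 1263 genes that rose and 1280 that fell (11.3 and 11.5% of all genes). Effects that were called at 2 h and were larger in the same direction at 8 h, here called extended, made up 379 genes up and 163 down (3.40 and 1.46%). Faded effects, larger at 2 h than at 8 h, were few, with 67 genes up and 117 down, of which 31 and 23 were still called at 8 h. The sign reversed, with a call at each time, from up to down in 29 genes and from down to up in 65 (0.260 and 0.582%). The remaining 95 called genes (0.851%) had no call at the time of their larger effect. The median effect of genes that appeared was 0.01 at 2 h and 0.43 at 8 h for those that rose, and -0.02 and -0.46 for those that fell, while extended genes that rose went from 0.49 to 1.20.

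**Figure D1:**
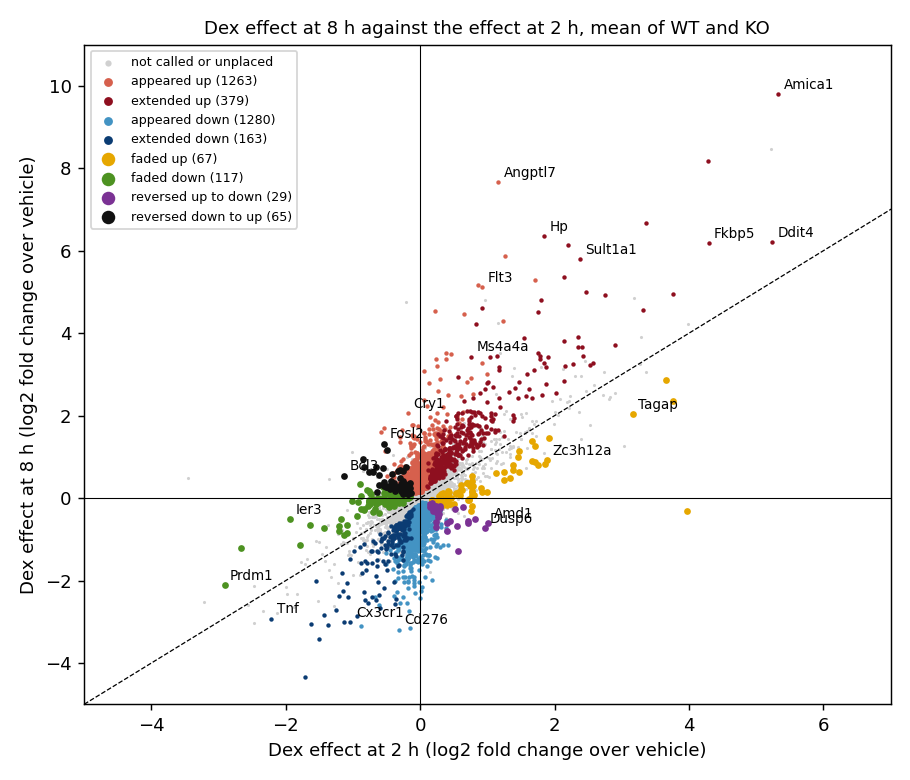
Dex effect at 8 h (log2 fold change over vehicle, vertical axis) against the effect at 2 h (horizontal axis) for 11160 genes, each a mean over WT and KO from 6 Dex and 6 vehicle libraries a time. Points above the dashed line of equal effects had the higher value at 8 h, and the colours give the class of called genes, with 379 extended up and 67 faded up.

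More of the receptor's known targets had a higher than a lower Dex effect at 8 h. Of 34 measured genes on a list of glucocorticoid receptor targets, 19 had a higher effect at 8 h than at 2 h and 3 a lower one, against 16.9 and 14.1% of all genes. The lower count was 5 without KO Dex 8 h replicate 1. Their median effect went from 0.90 at 2 h to 1.34 at 8 h. Of the 19 with a higher effect, 18 grew upwards and 1 was an early fall that faded. Both arms moved between 2 and 8 h. Within vehicle 8 of the 34 fell and 3 rose (12.6 and 11.1% of all genes), with a median change of -0.21. Within Dex 9 fell and 17 rose (26.9 and 30.1% of all genes), with a median change of 0.18. Fkbp5, a co-chaperone that holds the receptor in a state of low hormone affinity (chromosome 17, 28399094 to 28517527, minus strand), stood at 12.9 to 21.4 CPM (median 17.9) after vehicle and 298 to 375 CPM (median 339.6) after Dex at 2 h, and at 13.1 to 16.3 CPM (median 14.1) and 948 to 1156 CPM (median 1021) at 8 h. The ranges did not overlap at either time, and the Dex libraries at 8 h were all above those at 2 h. The effect on Fkbp5 was therefore 19.6-fold at 2 h and 72.7-fold at 8 h, a log2 difference of 1.89 ± 0.29 (SE, edgeR quasi-likelihood, Benjamini-Hochberg adjusted p = 6.04e-06). Tsc22d3, the gene of the leucine zipper protein GILZ, had 1577 to 1933 CPM (median 1741) after Dex at 2 h and 2340.0 to 2736 CPM (median 2622) at 8 h against 199 to 255 CPM (median 234) and 191 to 212 CPM (median 199) after vehicle. The difference of its effects was 0.80 ± 0.19 on the log2 scale. Klf9, a zinc finger repressor, and Zbtb16, which encodes the transcription factor PLZF, had differences of 1.04 ± 0.18 and 1.18 ± 0.24. Glul, which encodes glutamine synthetase, went from an effect of 1.57 to 2.48, and Map3k6, a stress kinase gene, from 2.40 to 3.67.

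Sult1a1, a phenol sulfotransferase on that list, grew more than the other targets described here (chromosome 7, 126672865 to 126676432, minus strand). It stood at 1.54 to 2.28 CPM (median 1.85) after vehicle and 6.44 to 13.7 CPM (median 9.46) after Dex at 2 h, then at 1.27 to 2.90 CPM (median 2.49) and 122 to 155 CPM (median 128) at 8 h. Its Dex libraries were apart from vehicle at both times, and the difference of effects was 3.41 ± 0.28 (edgeR quasi-likelihood, Benjamini-Hochberg adjusted p = 2.24e-11). Ddit4, an inhibitor of mTORC1, had an effect of 5.24 at 2 h and 6.21 at 8 h, and its call in the difference (0.97 ± 0.36, edgeR quasi-likelihood, Benjamini-Hochberg adjusted p = 0.0396) was kept in 12 of 24 fits that left out 1 library. It was lost without WT vehicle replicates 1 and 2, WT Dex replicate 3, KO vehicle replicate 1 or KO Dex replicate 2 at 2 h, and without WT vehicle replicates 1 and 3, WT Dex replicates 1 and 2, KO vehicle replicates 2 and 3 or KO Dex replicate 1 at 8 h, with values between 0.799 and 0.963. The members whose effect was lower at 8 h were Sesn1, a stress-induced inhibitor of mTORC1, Errfi1, an inhibitor of the EGF receptor chosen after its values were seen, and Anxa1, which encodes annexin A1 and was also chosen after its values were seen. Sesn1 went from 0.80 to 0.07, Errfi1 from 0.99 to 0.14 and Anxa1 from -0.08 to -0.46.

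Not every target grew. Sgk1, a kinase that controls ion channels and transporters (chromosome 10, 21882184 to 21999903, plus strand), stood at 90.8 to 116 CPM (median 106) after vehicle and 281 to 355 CPM (median 326) after Dex at 2 h, and at 69.6 to 108 CPM (median 100.2) and 195 to 245 CPM (median 214) at 8 h. Its effect was 1.60 at 2 h and 1.22 at 8 h, a difference of -0.37 ± 0.24 that was not called (edgeR quasi-likelihood, Benjamini-Hochberg adjusted p = 0.258) except in a fit on the 24 libraries alone (-0.38, edgeR quasi-likelihood, Benjamini-Hochberg adjusted p = 0.0387). Nfkbia, which encodes the NF-kB inhibitor IkB-alpha, had effects of 1.49 and 1.58 and a difference of 0.09 ± 0.18, also not called. The receptor gene itself, Nr3c1, was lowered at both times, with effects of -0.28 and -0.39 and 91.6 to 105 CPM (median 102) after vehicle and 73.8 to 89.6 CPM (median 83.3) after Dex at 2 h, 94.7 to 103 CPM (median 98.5) and 69.4 to 81.3 CPM (median 75.0) at 8 h, and no call in the difference (-0.11 ± 0.08). Of 20 genes for the receptor and its chaperones, 2 had a higher effect at 8 h (4 without KO Dex 2 h replicate 3). A lower effect was called for 4 of the 20, and over all genes 16.9% were higher and 14.1% lower. List members that fell at 8 h included the Hsp90 genes Hsp90aa1 (-0.11 at 2 h and -0.81 at 8 h) and Hsp90ab1 (0.01 and -0.37). The Hsp70-family gene Hspa4 fell too (-0.08 and -0.58), while the coactivator gene Ncoa1 went from 0.37 to 1.20.

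Promoters were read for letters like the receptor's element, since that element is the known contact of the receptor with DNA. RefSeq promoter windows (250 bases before to 50 after a start, GRCm38.p6) were matched by symbol to 8592 of 11160 genes, with 11007 windows in all. The element was spelled AGAACA, 3 bases of any kind, then TGTTCT, with at most 2 of the 12 fixed bases different, on both strands. It stood in 0.899% of all windows. The share was 1.42% of 423 windows of extended up genes and 3.25% of 154 windows of extended down genes. It was 0.760% of 1315 windows of appeared up genes, 0.724% of 1243 windows of appeared down genes, and 0 of 79 and 0 of 125 windows of faded up and faded down genes. Of windows of reversed genes it stood in 1 of 27 (3.70%, up to down) and 2 of 83 (2.41%, down to up). The exact letters AGAACA, which overlap that element, stood in 12.5% of all windows and in 13.7% of those of extended up genes. The same pair of shares was, for AP-1 letters TGACTCA, 3.74 and 5.44%, for NF-kB letters GGGACTTTC 0.391 and 0.473%, and for the E-box CACGTG 10.1 and 10.6%. These counts are small and no match in so short a window says anything of elements elsewhere. The 4 windows shown come from genes of different behaviour, with the match in capitals and each sequence read 5′ to 3′ along the gene. Sgk1 (plus strand) was not called in the difference and has 0 differences from the element. Sult1a1 (extended up), C1qb (appeared up) and Tnf (extended down), all on the minus strand, have 2 differences each.
Sgk1 chr10:21993640-21993939: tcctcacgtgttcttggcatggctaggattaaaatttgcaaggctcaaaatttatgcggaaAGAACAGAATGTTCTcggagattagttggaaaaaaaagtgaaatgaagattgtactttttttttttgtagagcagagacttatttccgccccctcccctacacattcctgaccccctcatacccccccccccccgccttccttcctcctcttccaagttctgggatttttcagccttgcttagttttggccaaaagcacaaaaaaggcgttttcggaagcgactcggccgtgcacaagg
Sult1a1 chr7:126676369-126676668: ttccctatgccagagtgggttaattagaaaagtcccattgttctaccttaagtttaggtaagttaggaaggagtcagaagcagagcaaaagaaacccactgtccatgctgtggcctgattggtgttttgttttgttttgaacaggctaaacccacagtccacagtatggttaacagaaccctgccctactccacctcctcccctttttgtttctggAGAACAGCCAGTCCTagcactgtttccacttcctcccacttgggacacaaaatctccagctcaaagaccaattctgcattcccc
C1qb chr4:136886151-136886450: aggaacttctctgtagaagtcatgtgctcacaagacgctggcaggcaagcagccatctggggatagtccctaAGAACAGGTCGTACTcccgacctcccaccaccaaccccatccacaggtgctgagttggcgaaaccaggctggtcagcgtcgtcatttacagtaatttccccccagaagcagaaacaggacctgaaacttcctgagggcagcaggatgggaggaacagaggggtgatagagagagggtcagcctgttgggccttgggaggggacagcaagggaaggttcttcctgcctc
Tnf chr17:35201958-35202257: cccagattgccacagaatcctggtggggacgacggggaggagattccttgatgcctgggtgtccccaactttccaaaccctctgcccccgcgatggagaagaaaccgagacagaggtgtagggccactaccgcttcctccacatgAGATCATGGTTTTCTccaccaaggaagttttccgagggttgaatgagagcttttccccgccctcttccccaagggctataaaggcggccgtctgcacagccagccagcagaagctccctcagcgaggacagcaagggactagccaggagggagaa
The matches begin 189, 34, 178 and 105 bases before the start site, in that order. Of these 4 genes, Sult1a1 and Tnf were called at both times with larger effects at 8 h, and C1qb was called only at 8 h. The effect on Sgk1 had no call in the difference, and another Sgk1 window has a match with 2 differences. The 4 windows were picked from those of named genes with a match. Whether a match goes with the timing of an effect was not tested.

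Several genes that grew were nearly silent in vehicle. Hp, which encodes the haemoglobin-binding plasma protein haptoglobin (chromosome 8, 109575128 to 109579172, minus strand), stood at 0.612 to 1.16 CPM (median 1.01) after vehicle and 1.99 to 4.81 CPM (median 3.70) after Dex at 2 h, and at 0.821 to 1.56 CPM (median 1.14) and 77.9 to 130.4 CPM (median 89.2) at 8 h. No Dex library overlapped the vehicle range at either time, and the effect went from 3.60-fold to 81.5-fold (log2 difference 4.50 ± 0.45, edgeR quasi-likelihood, Benjamini-Hochberg adjusted p = 1.72e-09). Amica1, an adhesion molecule of the junctional adhesion family, went from 12.6 to 25.8 CPM (median 16.9) in Dex libraries at 2 h to 153 to 243 CPM (median 202) at 8 h, with at most 0.490 CPM in any vehicle library of these times. Angptl7, a secreted angiopoietin-like protein (chromosome 4, 148495183 to 148500460, minus strand), was scarce in all 3 other conditions, at 0.0631 to 0.292 CPM (median 0.192), 0.230 to 0.736 CPM (median 0.416) and 0.0377 to 0.115 CPM (median 0.0961) in vehicle at 2 h, Dex at 2 h and vehicle at 8 h, and stood at 13.9 to 28.0 CPM (median 17.0) after 8 h of Dex. Its difference was 6.50 ± 0.67, from vehicle libraries that held 32 and 14 counts in all at 2 and 8 h. Flt3, the receptor of a dendritic cell growth factor, reached 3.87 to 5.37 CPM (median 5.09) after 8 h of Dex from at most 0.565 CPM in any library of the other conditions, and was not called at 2 h. The cytochrome P450 gene Cyp2ab1 reached 4.95 to 12.9 CPM (median 6.23). Cd38, an NAD-consuming ectoenzyme, had effects of 0.92 and 4.61. Lyve1, a hyaluronan receptor of tissue-resident macrophages, had a difference of 3.89 ± 0.99 that was lost without WT vehicle 2 h replicate 1 (2.97, edgeR quasi-likelihood, Benjamini-Hochberg adjusted p = 0.153), its vehicle libraries holding 24 and 8 counts in all at 2 and 8 h.

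Genes of the macrophage state associated with glucocorticoids mostly moved between 2 and 8 h. Of 25 measured members, 5 were called higher and 0 lower at 2 h (8.14 and 6.41% of all genes). At 8 h 17 were higher and 4 lower (27.5 and 24.7% of all genes). The difference was higher at 8 h for 15 and lower for 3 (16.9 and 14.1% of all genes). The median effect went from 0.07 to 0.78. Cd163, the scavenger receptor for haptoglobin-haemoglobin complexes, had 1.20 to 1.81 CPM (median 1.52) after vehicle and 4.20 to 5.59 CPM (median 5.03) after Dex at 2 h, and 0.754 to 2.94 CPM (median 1.55) and 12.8 to 15.7 CPM (median 13.7) at 8 h, an effect separate from vehicle at both times that grew by 1.42 ± 0.32 on the log2 scale. Mrc1, the mannose receptor, stood at 241 to 331 CPM (median 288) and 295 to 483 CPM (median 345) at 2 h, where the ranges overlapped, and at 209 to 302 CPM (median 237) and 619 to 796 CPM (median 691) at 8 h, where they did not. Mertk, a receptor for apoptotic cells, went from 0.76 to 1.37, although it also rose in vehicle by 0.54. Il4ra, the shared receptor chain for interleukin 4 and 13, went from -0.10 at 2 h to 1.26 at 8 h, and Thbs1, which encodes the matrix protein thrombospondin 1, from -0.30 to 1.35. Gas6, a ligand of Mertk, went the other way, from -0.17 to -0.84. All 3 chains of complement C1q appeared at 8 h. C1qa went from 0.33 to 1.40, C1qb from 0.21 to 1.11 and C1qc from 0.07 to 0.59. Of 16 complement genes 5 had a higher effect at 8 h and 0 a lower one (16.9 and 14.1% of all genes). Itgam, a chain of complement receptor 3, was among the 5 (0.13 and 0.62).

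The Ms4a family, a cluster of membrane protein genes, grew together. Of 9 measured members 7 had a higher effect at 8 h and 0 a lower one (16.9 and 14.1% of all genes). The median effect went from 0.53 to 2.00. Ms4a4a had a difference of 2.68 ± 0.21 (edgeR quasi-likelihood, Benjamini-Hochberg adjusted p = 1.55e-11). By genotype its levels after Dex were 116 ± 10.5 CPM (n = 3) in WT and 72.1 ± 6.65 CPM in KO at 2 h, and 631 ± 30.2 and 390 ± 29.4 CPM at 8 h, so the transcript left in KO grew too. The difference of effects was 2.66 in WT and 2.69 in KO. Ms4a6b, Ms4a6c and Ms4a6d had differences of 1.65 ± 0.16, 1.50 ± 0.15 and 1.15 ± 0.13. Ms4a6b stood at 421 to 536 CPM (median 459) after Dex at 2 h and 969 to 1059 CPM (median 999) at 8 h, while its vehicle libraries went from 212 to 273 CPM (median 257) to 138 to 196 CPM (median 175), so that both arms moved. Members of this family are close in sequence, and how the authors' counting split shared reads is not known.

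Among clock genes a Dex effect higher at 8 h than at 2 h was more common than a lower one. Of 20 measured genes of the circadian clock, 4 were called higher and 4 lower at 2 h (8.14 and 6.41% of all genes), and 13 higher and 4 lower at 8 h (27.5 and 24.7%). The difference was higher at 8 h for 10 and lower for 2 (16.9 and 14.1% of all genes). Within vehicle 9 of the 20 fell between 2 and 8 h and 0 rose (12.6 and 11.1% of all genes), with a median change of -0.26. Within Dex 6 fell and 9 rose (26.9 and 30.1% of all genes), with a median change of 0.17. Cry1, a repressor of the clock (chromosome 10, 85131700 to 85185064, minus strand), stood at 17.8 to 23.5 CPM (median 21.2) after vehicle and 13.9 to 24.1 CPM (median 18.3) after Dex at 2 h, then at 7.72 to 12.1 CPM (median 10.8) and 38.2 to 47.7 CPM (median 42.1) at 8 h. The ranges overlapped at 2 h and were far apart at 8 h, where vehicle had fallen and Dex had risen. The difference was 2.24 ± 0.13 (edgeR quasi-likelihood, Benjamini-Hochberg adjusted p = 2.10e-14). Per2, another repressor, went from 2.06 to 4.51 CPM (median 3.17) and 2.50 to 7.82 CPM (median 5.61) at 2 h to 0.757 to 1.03 CPM (median 0.883) and 15.3 to 19.0 CPM (median 16.0) at 8 h, and its change within vehicle (-1.82) was larger in size than its change within Dex (1.56). Cry2 and the output factor Tef went from 0.24 and 0.02 to 1.50 and 1.16. Per1, a direct target of the receptor, had 33.9 to 43.6 CPM (median 38.2) after Dex at 2 h and 33.1 to 44.1 CPM (median 39.9) at 8 h, ranges that overlap, and its effect grew by 0.71 ± 0.18 with a change within vehicle of -0.66 and within Dex of 0.05. For Per1 the larger effect at 8 h therefore lay in the lower vehicle level. The same held for Dusp1, a phosphatase that switches off p38 and JNK, with changes of -0.51 within vehicle and 0.19 within Dex.

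**Figure D2:**
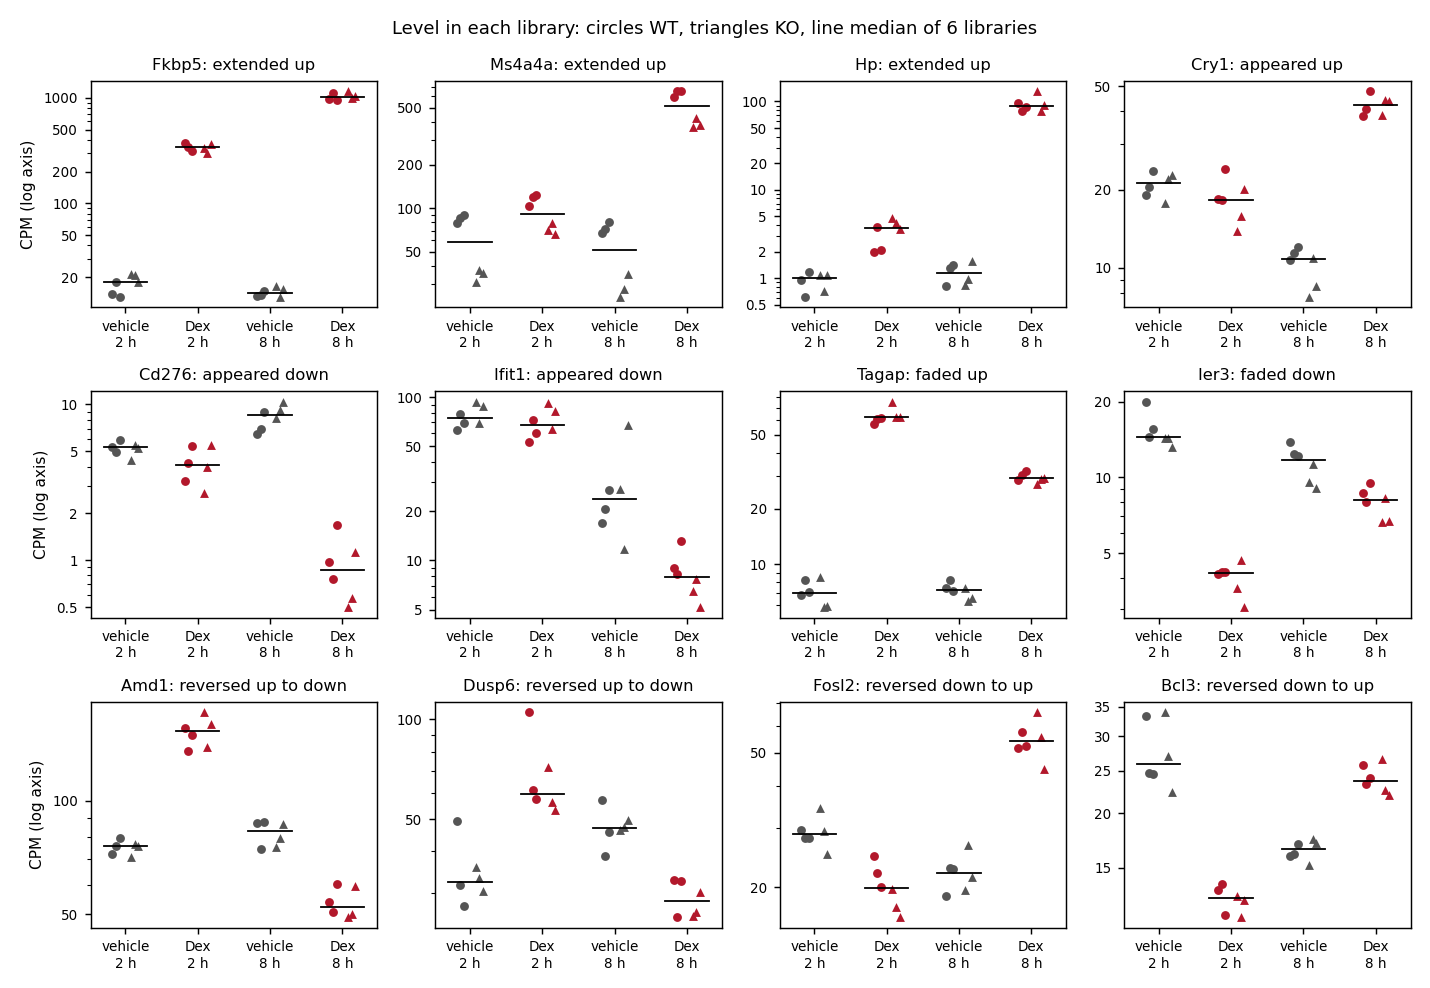
Level of 12 genes in each of 24 libraries (CPM on log axes, vertical) for vehicle and Dex at 2 and 8 h (horizontal), circles WT, triangles KO, lines the median of 6 libraries. Fkbp5 and Hp climb again from Dex at 2 h to Dex at 8 h, Tagap and Ier3 come back towards vehicle, Amd1 and Dusp6 pass from above to below vehicle, and Fosl2 and Bcl3 from below to above.

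Of the 1443 genes whose Dex effect grew downwards, 1280 had no call at 2 h. Cd276, which encodes the checkpoint ligand B7-H3 (chromosome 9, 58524298 to 58555437, minus strand), stood at 4.42 to 5.94 CPM (median 5.30), 2.70 to 5.53 CPM (median 4.08) and 6.50 to 10.4 CPM (median 8.58) in vehicle at 2 h, Dex at 2 h and vehicle at 8 h, and at 0.500 to 1.69 CPM (median 0.863) after 8 h of Dex. Its difference was -2.87 ± 0.31 (edgeR quasi-likelihood, Benjamini-Hochberg adjusted p = 1.07e-08), and its vehicle level rose (0.67) while its Dex level fell (-2.20). At 8 h the orphan receptor gene Gpr176 had 17.0 to 23.0 CPM (median 20.1) after vehicle and 2.17 to 3.79 CPM (median 2.84) after Dex. Pde1c, a cyclic nucleotide phosphodiesterase, went from 0.01 to -2.26. Bcl2, the survival gene, went from -0.08 to -2.31, with 9.37 to 14.4 CPM (median 12.0) after vehicle and 1.70 to 3.01 CPM (median 2.40) after Dex at 8 h. None of these 4 genes had a 2 h call, as their class requires, and at 8 h none of the Dex ranges overlapped vehicle. The Dex range also lay wholly below vehicle at 8 h for 1062 of the 1280 genes that appeared down, and for 1884 of all 11160 genes. Extended falls were led by Rapgef5, an exchange factor for Ras-family GTPases, with effects of -0.38 and -2.56. The orphan receptor gene Gpr162 had -0.37 and -2.45, and the thyroid hormone-activating deiodinase gene Dio2 -0.60 and -2.66. The fractalkine receptor gene Cx3cr1 had -1.04 and -3.01. Cx3cr1 differed from the others in its arms, since it rose in vehicle from 1.19 to 4.09 CPM (median 3.20) at 2 h to 5.27 to 12.3 CPM (median 8.04) at 8 h and stayed at 0.722 to 1.50 CPM (median 1.06) after 8 h of Dex.

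Some cytokine genes were lowered from 2 h on and others were called only at 8 h. Of 22 measured inflammatory cytokines and chemokines, 9 were called lower at 2 h and 13 at 8 h (6.41 and 24.7% of all genes). Called higher were 0 and 3 (8.14 and 27.5% of all genes). The median effect went from -0.28 to -0.83. The difference was lower at 8 h for 5 and higher for 2 (14.1 and 16.9% of all genes). The higher count was 1 on leaving out vehicle replicate 1 of either genotype at 2 h, vehicle replicate 2 of either genotype at 8 h, or KO Dex replicate 1 at 8 h. Tnf, the central inflammatory cytokine, stood at 13.2 to 19.4 CPM (median 16.5) after vehicle and 2.16 to 4.16 CPM (median 3.81) after Dex at 2 h, and at 7.88 to 10.3 CPM (median 8.98) and 0.867 to 1.45 CPM (median 1.27) at 8 h. Its vehicle and Dex ranges were apart at both times, both arms fell, and the difference of effects was -0.71 ± 0.20 (edgeR quasi-likelihood, Benjamini-Hochberg adjusted p = 0.00634). Ccl2, the monocyte chemokine, had effects of -1.87 and -2.63 and a difference of -0.76 ± 0.43 that was not called (edgeR quasi-likelihood, Benjamini-Hochberg adjusted p = 0.187) except with a block for replicate number within genotype. Il1b was scarce, at 0.895 to 4.63 CPM (median 1.51) after vehicle and 0.192 to 0.933 CPM (median 0.339) after Dex at 2 h, and its difference (-0.55 ± 0.66) was not called. Ccl22 and Cxcl16, chemokines for T cells, went from -0.18 and -0.28 to -2.19 and -1.06. The Dex and vehicle ranges of Ccl22 overlapped at both times, and its difference of -2.01 was -3.21 without KO Dex 8 h replicate 3. Osm, the cytokine oncostatin M, moved the other way, with 9.31 to 11.4 CPM (median 10.3) after vehicle and 15.9 to 22.8 CPM (median 19.3) after Dex at 8 h and an effect of 0.90 after -0.29 at 2 h. Of 26 NF-kB factors and feedback genes 5 were called in the difference, where 31.0% of all genes were. The effect at 8 h was higher for 2 and lower for 3 (5 lower without KO vehicle 2 h replicate 1). At an unadjusted p under 0.05 in edgeR's quasi-likelihood test there were 10 of the 26, beside 4498 of all 11160 genes. Birc3, an inhibitor of apoptosis, went from 0.98 to 1.74, and Tnfaip3, which encodes the NF-kB inhibitor A20, from 0.15 to -0.65.

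Most sterol synthesis genes fell at 8 h. Of 23 measured genes of cholesterol synthesis and uptake, 3 were called lower and 1 higher at 2 h (6.41 and 8.14% of all genes). At 8 h 14 were lower and 1 higher (24.7 and 27.5% of all genes). The difference was lower at 8 h for 11 and higher for 1 (14.1 and 16.9% of all genes). The median effect went from -0.15 to -0.71. Idi1, an isomerase of the isoprenoid steps, stood at 50.8 to 70.7 CPM (median 66.7) after vehicle and 19.3 to 27.5 CPM (median 24.8) after Dex at 8 h, with an effect of -1.41 after -0.17 at 2 h. Msmo1 and Cyp51, enzymes of demethylation of sterols, had effects of -1.13 and -1.10 at 8 h, and Srebf2, which encodes the transcription factor SREBP2 of this pathway, had -0.92. Within vehicle none of these 4 was called, with log2 changes from 2 to 8 h of 0.07 for Idi1, 0.04 for Msmo1, -0.07 for Cyp51 and -0.04 for Srebf2. Pmvk, which encodes phosphomevalonate kinase and was chosen after its values were seen, was the member with a higher effect (0.42 and 0.94). Of 24 genes of lipid handling 3 had a higher and 4 a lower effect at 8 h (16.9 and 14.1% of all genes). Pparg, a lipid-sensing nuclear receptor, went from -0.26 to -1.49 and Lipa, the lysosomal acid lipase, from -0.11 to -1.42. The fatty acid-binding protein gene Fabp5 went from -0.12 to -0.98, and the apolipoprotein gene Apoc2 rose from 0.26 to 1.70.

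Genes for making ribosomes and folding proteins also had lower effects at 8 h. Of 30 ribosome biogenesis genes 15 had a lower and 1 a higher effect at 8 h (14.1 and 16.9% of all genes). Their median went from 0.00 to -0.30. Bop1 and Nolc1, factors of the nucleolus, went from 0.03 and 0.01 to -0.37 and -0.48, and Nop58, a core protein of small nucleolar ribonucleoproteins, from -0.12 to -0.75. Dkc1, the pseudouridine synthase dyskerin, was called up at 2 h (0.40) and down at 8 h (-0.60). Of 20 unfolded protein response and chaperone genes 9 had a lower and 3 a higher effect, beside the same shares of all genes. The endoplasmic reticulum chaperone genes Hspa5 (0.09 and -0.25) and Calr (-0.02 and -0.41) were on the lower side, and the transcription factor gene Xbp1 (-0.02 and 0.32) on the higher. The 40 cytosolic ribosomal protein genes and the 13 mitochondrial transcripts had 0 members called in the difference by edgeR quasi-likelihood and by DESeq2, and 1 and 0 at an unadjusted p under 0.05 in edgeR. The ribosomal count was 1 without KO vehicle 8 h replicate 2. The median differences of the pair of lists were 0.04 and 0.06. Of 36 DNA replication genes 7 had a lower and 1 a higher effect at 8 h, against 14.1 and 16.9% of all genes, and 28 fell between 2 and 8 h within vehicle libraries (12.6% of all genes did). Pcna, the sliding clamp of DNA polymerases, went from -0.13 to -1.12, and the helicase subunit genes Mcm2, Mcm3 and Mcm6 to -0.91, -0.53 and -0.58. Of 31 mitosis genes 1 was called in the difference, where 31.0% of all genes were. It was Cenpa, which encodes the centromeric histone and went from -0.62 to -0.09.

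Interferon-stimulated genes fell in vehicle as well as in Dex. All 37 measured members fell between 2 and 8 h within vehicle, where 12.6% of all genes fell, and all 37 fell within Dex (26.9% of all genes), with median changes of -1.37 and -1.67. At 2 h 1 member was called higher and 0 lower after Dex (8.14 and 6.41% of all genes). At 8 h 16 were lower and 0 higher (24.7 and 27.5% of all genes). The difference of effects was lower at 8 h for 14 and higher for 0 (14.1 and 16.9% of all genes). When each library was left out 12 to 19 were lower, with 12 without KO vehicle 8 h replicate 3. Ifit1, an antiviral RNA-binding protein (chromosome 19, 34640871 to 34650009, plus strand), stood at 62.5 to 93.9 CPM (median 74.3) after vehicle and 53.3 to 92.5 CPM (median 68.0) after Dex at 2 h, and at 11.8 to 67.3 CPM (median 23.7) and 5.16 to 13.1 CPM (median 7.96) at 8 h. The ranges overlapped at both times, and the highest vehicle library at 8 h was KO replicate 3, at 67.3 CPM. The difference for Ifit1 was -1.64 ± 0.37 and lay between -1.85 and -1.21 when each library was left out, with a call in 24 of 24 fits. Rsad2, which encodes the antiviral enzyme viperin, went from 0.11 to -1.50, Ifit3 from 0.01 to -1.51 and Rtp4 from -0.17 to -1.32. Ciita, the master activator of MHC class II genes, went from -0.68, which was not called, to -2.39. Its difference of -1.71 lay between -1.97 and -1.53 when each library was left out. Of 13 class II presentation genes 1 had a higher and 1, Ciita itself, a lower effect at 8 h (16.9 and 14.1% of all genes).

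**Figure D3:**
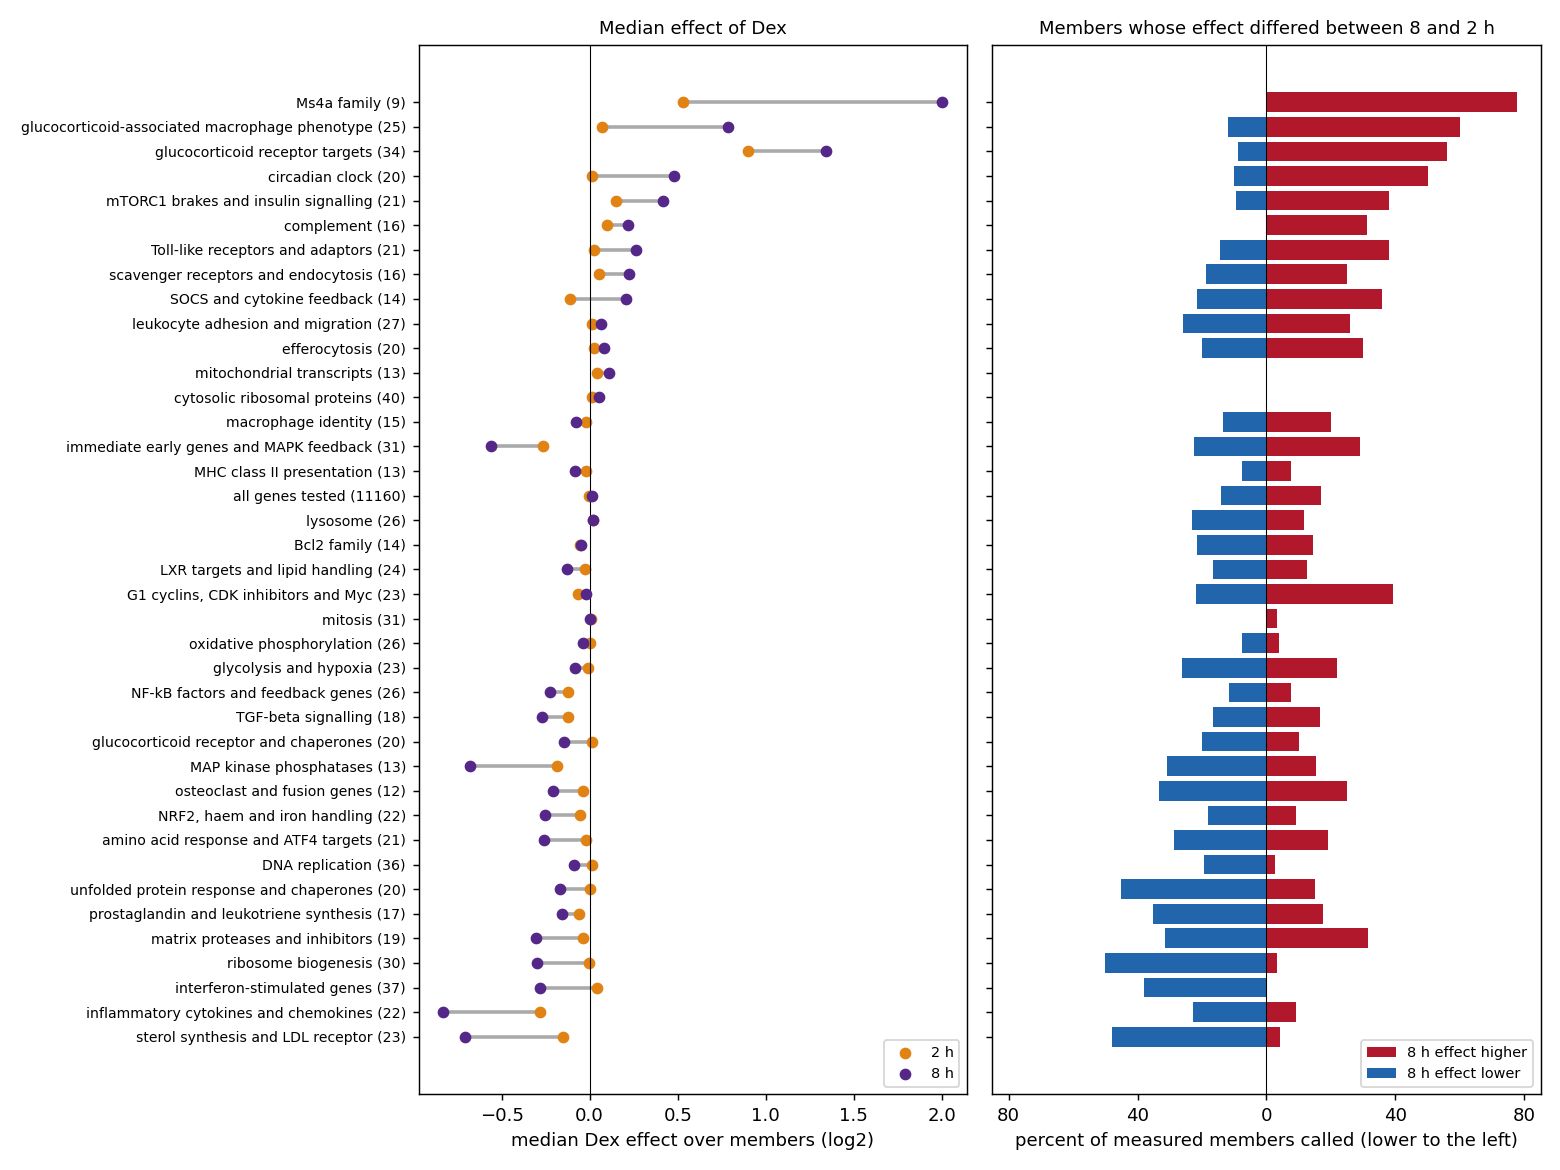
Left, the median Dex effect (log2) at 2 h and 8 h over the measured members of each gene list with at least 9 members (number in brackets). Right, the percent of members whose effect was higher or lower at 8 h than at 2 h, such as 7 of 9 Ms4a genes higher and 11 of 23 sterol synthesis genes lower, beside 16.9% higher and 14.1% lower of all genes tested.

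Of the 67 rises that faded, 31 were still called at 8 h. Tagap, a GTPase-activating protein of activated T cells (chromosome 17, 7926000 to 7934897, plus strand), stood at 5.85 to 8.51 CPM (median 6.97) after vehicle and 57.0 to 75.8 CPM (median 62.2) after Dex at 2 h, and at 6.30 to 8.26 CPM (median 7.28) and 27.3 to 32.0 CPM (median 29.1) at 8 h. Its Dex range at 8 h lay between its vehicle and its 2 h Dex range, and the effect went from 8.96-fold to 4.09-fold (log2 difference -1.13 ± 0.14, edgeR quasi-likelihood, Benjamini-Hochberg adjusted p = 1.07e-07). Zc3h12a, which encodes the RNase regnase-1 that degrades inflammatory mRNAs, had 33.9 to 50.4 CPM (median 47.4) after Dex at 2 h and 16.3 to 23.0 CPM (median 17.4) at 8 h against 10.1 to 13.2 CPM (median 12.5) and 8.78 to 11.3 CPM (median 9.35) after vehicle. Napepld, an enzyme that makes N-acylethanolamines, went from 1.86 to 0.82. Otud1, a deubiquitinase, went from 0.78 to -0.20 and was not called at 8 h, and neither was Bcl2l1, which encodes the survival protein Bcl-xL (0.71 and -0.04). Itga5, the fibronectin receptor chain, went from 0.90 to 0.25. One histone gene, Hist1h2bq, had the largest fading estimate (-4.28 ± 1.37) but was scarce and uneven, with 0 to 2.43 CPM (median 0.130) after vehicle and 0 to 2.02 CPM (median 1.45) after Dex at 2 h, and it was chosen after its values were seen.

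Of the 117 falls that faded, 94 were no longer called at 8 h. Ier3, an immediate early gene that modulates apoptosis (chromosome 17, 35821684 to 35822923, plus strand), stood at 13.2 to 20.0 CPM (median 14.4) after vehicle and 3.05 to 4.69 CPM (median 4.17) after Dex at 2 h, and at 9.12 to 13.8 CPM (median 11.8) and 6.67 to 9.49 CPM (median 8.15) at 8 h. Its ranges were apart at 2 h and overlapped at 8 h, where the effect was still called (effects -1.93 and -0.51, difference 1.42 ± 0.16, edgeR quasi-likelihood, Benjamini-Hochberg adjusted p = 2.56e-08). Junb, an AP-1 subunit, had 109 to 154 CPM (median 133) and 64.0 to 79.6 CPM (median 75.0) at 2 h and 81.4 to 91.4 CPM (median 85.8) and 76.5 to 94.3 CPM (median 91.5) at 8 h, so the ranges met. Its vehicle level came down (-0.63) and its Dex level up (0.30). Irf1, an interferon-regulatory factor, went from -0.79 to 0.19, and Fzd1, a Wnt receptor, from -0.90 to 0.33. Prdm1, which encodes the repressor Blimp-1, was lower after Dex at both times, with 19.8 to 27.1 CPM (median 22.3) and 2.05 to 3.73 CPM (median 3.02) at 2 h and 30.5 to 38.5 CPM (median 31.4) and 6.75 to 9.84 CPM (median 7.22) at 8 h. Its effect went from -2.91 to -2.12. Spi1, which encodes the macrophage lineage factor PU.1, went from -0.30 to 0.00. Of 31 immediate early and MAPK feedback genes 9 had a higher and 7 a lower effect at 8 h (16.9 and 14.1% of all genes). Fos and Egr1 had no call in the difference, with effects of 0.69 and 0.70 for Fos and -0.19 and -0.32 for Egr1. The sign of the near-zero difference of Fos turned with the scaling.

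The 29 reversals from up to down included clear crossings of the vehicle range, but not all were. The Dex range lay wholly above vehicle at 2 h in 13 and wholly below it at 8 h in 18. Of all 11160 genes 609 and 1884 did so. Amd1, the S-adenosylmethionine decarboxylase that commits to polyamine synthesis (chromosome 10, 40287458 to 40302186, minus strand), stood at 71.0 to 79.7 CPM (median 75.8) after vehicle and 135 to 172 CPM (median 153) after Dex at 2 h, and at 74.4 to 87.7 CPM (median 83.2) and 49.1 to 60.2 CPM (median 52.3) at 8 h. All 6 Dex libraries were above all vehicle libraries at 2 h and below them at 8 h, a difference of -1.62 ± 0.09 (edgeR quasi-likelihood, Benjamini-Hochberg adjusted p = 1.26e-14). The table also lists the near-identical Amd2, so reads of the pair may have been split between them. Dusp6, the phosphatase of ERK (chromosome 10, 99263231 to 99267489, plus strand), had 27.3 to 49.4 CPM (median 32.4) and 53.5 to 105 CPM (median 59.4) at 2 h and 38.7 to 57.1 CPM (median 46.9) and 25.3 to 32.8 CPM (median 28.3) at 8 h, again with no overlap at either time. Prokr1, a prokineticin receptor, went from 0.82 to -0.50, and D8Ertd82e, a scarce gene with at most 8.00 CPM, from 0.56 to -1.29. Dusp2, a nuclear MAP kinase phosphatase, went from 0.55 to -0.68. Adam17, the protease that releases soluble TNF, went from 0.19 to -0.32, and its Dex and vehicle ranges overlapped at 2 h.

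Of the 65 reversals from down to up, the Dex range lay wholly below vehicle at 2 h in 31 and wholly above it at 8 h in 39. Among all 11160 genes 392 and 2263 did so. Fosl2, which encodes the AP-1 subunit Fra-2 (chromosome 5, 32135801 to 32157842, plus strand), stood at 25.0 to 34.3 CPM (median 28.7) after vehicle and 16.3 to 24.8 CPM (median 19.9) after Dex at 2 h, and at 18.8 to 26.7 CPM (median 22.0) and 44.9 to 66.1 CPM (median 54.2) at 8 h. The difference was 1.86 ± 0.15 (edgeR quasi-likelihood, Benjamini-Hochberg adjusted p = 1.52e-11). Bcl3, an atypical IkB protein (chromosome 7, 19808462 to 19822770, minus strand), had 22.3 to 34.1 CPM (median 25.9) and 11.6 to 13.8 CPM (median 12.8) at 2 h and 15.2 to 17.4 CPM (median 16.6) and 22.0 to 26.5 CPM (median 23.7) at 8 h. For both genes the Dex range lay wholly below vehicle at 2 h and wholly above it at 8 h, and for Bcl3 the level after 8 h of Dex overlapped that after 2 h of vehicle. Btg1, an antiproliferative gene, had 135 to 172 CPM (median 169.7) after Dex at 2 h and 360.1 to 479.9 CPM (median 424) at 8 h, with 173 to 294 CPM (median 226) and 176 to 198 CPM (median 187) after vehicle. Pde4b, a cyclic AMP phosphodiesterase, went from -0.85 to 0.96. The antagonists of Myc took part, with Mxd1 going from -0.77 to 0.62 and Mxi1 from -0.25 to 0.66, while Mxd4 was raised at both times (0.22 and 0.87). Myc itself was lowered at both, with effects of -0.62 and -1.31, and its difference (-0.69 ± 0.25, edgeR quasi-likelihood, Benjamini-Hochberg adjusted p = 0.0370) kept its call in 14 of 24 fits that left out 1 library. It was lost, at values between -0.684 and -0.526, without WT vehicle replicates 2 and 3, WT Dex replicate 1 or KO vehicle replicate 3 at 2 h, and without WT vehicle replicate 1, WT Dex replicates 2 and 3, KO vehicle replicate 1 or KO Dex replicates 1 and 2 at 8 h.

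Families of feedback inhibitors held members that moved in opposite directions. For each list here the shares over all genes were 16.9% higher and 14.1% lower. Of 13 MAP kinase phosphatases 2 had a higher and 4 a lower effect at 8 h. The higher count was 1 without WT vehicle replicate 1, WT Dex replicates 2 and 3, KO vehicle replicate 1 or KO Dex replicates 2 and 3 at 2 h, and without WT vehicle replicates 2 and 3, WT Dex replicates 1 and 2, KO vehicle replicates 2 and 3 or KO Dex replicates 2 and 3 at 8 h, each left out alone. Dusp1 was extended up (2.15 and 2.85), Dusp4, a nuclear phosphatase of ERK, was extended down (-1.37 and -3.08), Dusp6 and Dusp2 reversed, and Dusp3 appeared down (-0.03 and -0.27). Of 14 genes of cytokine feedback 5 had a higher and 3 a lower effect. Socs3, the inhibitor of gp130 signalling, had 0.802 to 2.78 CPM (median 1.91) after vehicle and 4.28 to 6.83 CPM (median 5.83) after Dex at 8 h and went from -0.53 to 1.71, Cish from -0.09 to 1.50 and the SUMO ligase gene Pias1 from 0.32 to 0.74. Of 21 Toll-like receptor genes and adaptors 8 had a higher and 3 a lower effect, with Tlr7, an RNA sensor, at 260.1 to 358 CPM (median 294) and 451 to 554 CPM (median 519) after Dex at 2 and 8 h against 139 to 173 CPM (median 162) and 114 to 143 CPM (median 131) after vehicle. Tlr5, the flagellin receptor, went from 1.91 to 3.42, Tlr1 from -0.13 to -1.12, and the TLR4 adaptor Ticam2 reversed from -0.35 to 0.28.

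Nutrient and matrix genes held movers in both directions, and each list is to be read beside 16.9% higher and 14.1% lower over all genes. Of 21 genes that brake mTORC1 or carry insulin signals 8 had a higher and 2 a lower effect at 8 h. Pik3ip1, an inhibitor of PI3-kinase, had 49.4 to 71.8 CPM (median 57.5) after Dex at 2 h and 207 to 255 CPM (median 227) at 8 h against 10.1 to 13.5 CPM (median 11.2) and 13.4 to 16.2 CPM (median 15.6) after vehicle, and Deptor, an mTOR inhibitor, went from 0.26 to 1.55. Igf1, an insulin-like growth factor made by macrophages, went from -0.13 to -1.38, with 716 to 876 CPM (median 789) after vehicle and 264 to 349.6 CPM (median 301) after Dex at 8 h. Of 23 glycolysis and hypoxia genes 5 had a higher and 6 a lower effect. On the higher side were Pfkfb3, which makes the activator of phosphofructokinase (1.61 and 2.65), Pfkl (0.44 and 1.15) and the mitophagy receptor gene Bnip3 (0.08 and 0.84). On the lower side were the phosphofructokinase gene Pfkp (-0.02 and -0.48) and the pyruvate kinase gene Pkm (-0.04 and -0.25), both chosen after their values were seen. Of 21 genes of the amino acid response 4 had a higher and 6 a lower effect. The higher count was 2 on leaving out, 1 at a time, WT vehicle replicates 2 and 3, WT Dex replicates 1, 2 and 3, KO vehicle replicate 2 and KO Dex replicate 2 at 2 h, and WT vehicle replicate 2, WT Dex replicate 3 and KO Dex replicate 1 at 8 h. The list holds the mitochondrial folate enzyme gene Mthfd2 (-0.21 and -1.45) and Sesn2, an inhibitor of mTORC1 (0.12 and 0.98). Of 19 matrix proteases and inhibitors 6 had a higher and 6 a lower effect, and Mmp19 went from 0.96 to 2.65 and Mmp8 from 0.07 to 1.44. Of 27 adhesion and migration genes 7 moved each way. Cd44, the hyaluronan receptor, went from -0.36 to -1.14.

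The remaining lists gave few calls or mixed ones. For each of them the shares over all genes were 16.9% higher and 14.1% lower. Of 22 genes of the NRF2 response, haem and iron 2 had a higher and 4 a lower effect at 8 h. Tfrc, the transferrin receptor, went from 0.05 to -0.88, and the redox enzyme genes Txnrd1 and Gsr went in opposite directions, to -1.18 and 0.68 from -0.40 and 0.02. Of 17 prostaglandin and leukotriene genes 3 had a higher and 6 a lower effect. The higher count was 1 when WT Dex replicate 1, KO vehicle replicate 2 or KO Dex replicate 1 at 2 h, or WT vehicle replicate 1, WT Dex replicate 2 or WT Dex replicate 3 at 8 h, was left out. Pla2g4a, the phospholipase that releases arachidonic acid, went from -0.25 to -1.15, and Hpgds, a prostaglandin D synthase, from -0.06 to -0.91. Hpgd, which inactivates prostaglandins, rose within vehicle from 2.68 to 4.11 CPM (median 3.15) at 2 h to 8.09 to 10.5 CPM (median 9.92) at 8 h, and stood at 2.08 to 3.75 CPM (median 3.19) and 3.12 to 5.02 CPM (median 4.24) after Dex. Its Dex range at 8 h was below vehicle, so its lower effect (-1.21) came with a rise in vehicle.

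Of 12 osteoclast and fusion genes 3 had a higher and 4 a lower effect at 8 h, where 16.9% of all genes were higher and 14.1% lower. The same shares stand beside each list that follows here. Dcstamp, a membrane protein needed for macrophage fusion, had 4.82 to 10.4 CPM (median 6.56) after vehicle and 4.89 to 10.1 CPM (median 5.49) after Dex at 2 h, and 4.16 to 9.48 CPM (median 5.25) and 0.984 to 2.80 CPM (median 1.32) at 8 h, and the integrin gene Itgb3 went from -0.04 to -0.77. Of 20 efferocytosis genes 6 had a higher and 4 a lower effect. The clearance receptor gene Stab1 went from 0.23 to 0.78 and the mitochondrial carrier gene Ucp2 from 0.54 to 1.32, while Itgav, an integrin chain, went from -0.48 to -1.52 with a rise within vehicle of 0.60. Of 26 lysosome genes 3 had a higher and 6 a lower effect, with the proton pump gene Atp6v1a at -0.11 and -0.72. Tfeb, the transcription factor of lysosome genes, had an early fall that faded (-0.41 and -0.07). Of 18 TGF-beta genes 3 had a higher and 3 a lower effect. The lower count was 1 without vehicle replicate 3 of either genotype at 8 h or WT vehicle replicate 1 at 2 h, and 5 without WT vehicle 8 h replicate 2 or KO Dex 8 h replicate 1. Among them were the coreceptor gene Tgfbr3 (0.24 and 1.51) and the ligand gene Tgfb1 (-0.11 and -0.48). Of 23 genes of the G1 phase and Myc 9 had a higher and 5 a lower effect, and the cyclin gene Ccnd3 went from 0.17 to 1.01. The lower count was 2 without WT vehicle replicate 2, WT vehicle replicate 3 or WT Dex replicate 1 at 2 h or WT vehicle replicate 1 at 8 h. It was 3 without KO vehicle replicate 3 at 2 h, or WT Dex replicate 3, KO vehicle replicate 1 or KO Dex replicate 2 at 8 h. Mitf, a transcription factor that the macrophage list holds, rose within vehicle (0.60) and had a change of -0.04 within Dex that was not called. Kit and Ccr7, markers of mast and dendritic cells, went from -0.15 and -0.39 to -1.57 and -2.38, in the direction opposite to that of Flt3.

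Which arm carried a difference was read from the change between 2 and 8 h within Dex and within vehicle libraries. Within Dex 6359 genes (57.0%) changed, 30.1% higher and 26.9% lower, and within vehicle 2641 (23.7%), 11.1% higher and 12.6% lower, of which 108 were over 2-fold lower and 15 over 2-fold higher. Of the 1263 genes that appeared up, 909 had a call within Dex alone, 74 within vehicle alone, 239 in both and 41 in neither, and the vehicle part was larger in size for 136. For the 1280 that appeared down the counts were 836, 88, 322 and 34, with 140 where the vehicle part was larger. Among the 94 early falls no longer called at 8 h the vehicle part was larger for 37, and among the 29 reversals from up to down for 2. Since the difference is the Dex change minus the vehicle change, these counts describe its parts and are no separate evidence.

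**Figure D4:**
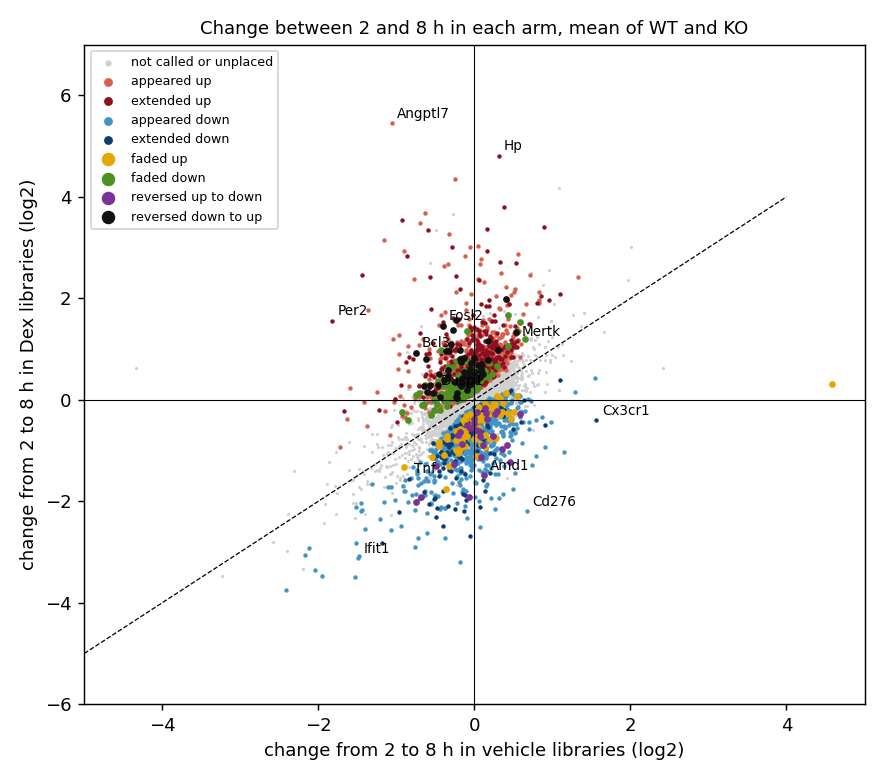
Change from 2 to 8 h within Dex libraries (log2, vertical axis) against the change within vehicle libraries (horizontal axis) for 11160 genes, coloured by class. On the dashed line both arms changed alike, genes such as Hp and Angptl7 lie far above it through the Dex arm, and Tnf and Ifit1 fell in both arms.

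The growth, fading and reversal were also read in each genotype. With 3 libraries a group, the difference of effects was called for 1980 genes in WT (17.7%, 9.38% higher and 8.36% lower) and 2078 in KO (18.6%, 10.3% higher and 8.32% lower). Of these, 1206 were called in both, 60.9% of the WT list and 58.0% of the KO list, all with the same sign. Over all 11160 genes the WT and KO differences, which share no library, had a Pearson correlation of 0.722, given as a description. Of the 3458 genes called in the mean, 3455 had the same sign in WT and KO, a direction that their choice by the mean partly fixes. The test of KO minus WT called 0 genes (0%), and 0 by DESeq2. At an unadjusted p under 0.05 there were 502, fewer than that limit would be expected to pass if no gene differed. These counts do not show that the genotypes responded alike. The median SE of this contrast was 0.235 against 0.118 for the mean contrast, so that small differences were not detectable. Amd1 had -1.55 in WT and -1.68 in KO, Fosl2 1.69 and 2.03, Hp 4.63 and 4.37, and Cd276 -2.39 and -3.36.

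**Figure D5:**
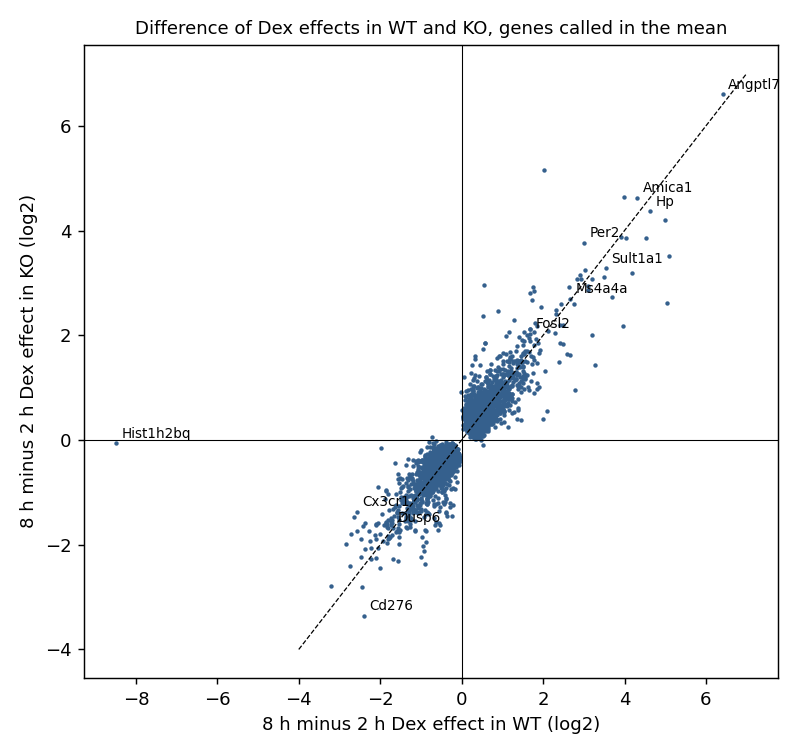
Difference of Dex effects (8 h minus 2 h, log2) in KO (vertical axis) against WT (horizontal axis) for the 3458 genes called in the mean of both. All but 3 lie in the quadrants of equal sign, and the dashed line marks equal differences.

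The direction of each class was also read at 24 h. The contrasts behind the classes do not include the 24 h libraries, but all 42 libraries share the estimate of spread behind every call. Dex raised 26.8% and lowered 26.8% of all genes at 24 h (5984 called, 53.6%). Of extended genes, 91.6% of those up were called higher and 94.5% of those down lower, and of appeared genes 69.4% and 73.8%. Of the 29 genes reversed from up to down, 22 (75.9%) were lower at 24 h and 0 higher, and of the 65 reversed from down to up 35 (53.8%) were higher and 6 lower. Faded genes were nearer the background, with 38.8% of faded up genes higher and 23.1% of faded down genes lower. Fkbp5 stood at an effect of 5.09 at 24 h, below its 8 h value of 6.18, Hp at 6.57, and Cry1 at 0.06, near 0 after 2.05 at 8 h. Among reversed genes Amd1 stood at -0.25, Bcl3 at 0.57 and Btg1 at 0.64. Mmp8 was at 3.14, above its 8 h effect of 1.44, and no test of 24 h against 8 h was made here.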

How the data were processed

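RNA was sequenced from 42 libraries of bone marrow-derived macrophages with a SMART-Seq mRNA kit. The comparison uses 24 of them (vehicle and Dex at 2 and 8 h, both genotypes, 3 replicates). The table holds expected counts by gene symbol, as deposited by the authors. The submitters' processing notes name fastp, HISAT2, Salmon and GRCm38, with no version or order. How reads were counted, whether strand was used and how genes were filtered is not given in the sources used here. The lowest gene total is 256, so scarce genes are missing from the table, and list members without a row were not analysed here.

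Counts were rounded. edgeR 4.0.16 (R 4.3.3) fitted the means of 14 groups to all 42 libraries after TMM scaling (factors 0.950 to 1.04). Quasi-likelihood F tests were adjusted by Benjamini-Hochberg over 11160 genes and called at 0.05. The low-count filter (filterByExpr) removed 0 genes. CPM are TMM-scaled, and ranges are the lowest and highest of 6 libraries. SE is the log2 difference divided by the root of F. On simulated counts of 11160 genes for the difference of effects, 67, 67 and 66 genes were changed by 0.5, 1 and 2 on the log2 scale. Of these 62.7, 89.6 and 97.0% were called, and 1.19% of calls (2 genes) were false. Far fewer genes were changed there than were called in the data, which makes the adjusted threshold stricter. The simulated shares therefore need not hold for the data.

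Named genes are, per class, the 4 with the largest difference among those with 5 CPM or more in a group (unnamed loci aside), up to 4 called genes per list by lowest p, and 21 fixed genes, with others marked in the text. A few genes that this rule names are not reported here. Gene lists, classes and members were chosen with earlier results of these data known. A chi-square test found no replicates within counting noise of each other. As alternatives, DESeq2 1.42.0, scaling by median ratios, fits without a filter or above 5 CPM, replicate blocks, the 24 libraries alone, other class limits and leaving out each library were tried. The 24 h comparison and a fit without KO vehicle 24 h replicate 2 were added after seeing the data. Positions are from GENCODE mouse release 21 (GRCm38).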

Additional observations from a re-analysis of the deposited data

How the results depend on the processing

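The numbers of genes called in the comparisons stayed within 1.5 times under every alternative tried. The difference of effects had 3628 calls with DESeq2, 3469 with median-ratio scaling, 3458 without a filter, 3139 at a mean of at least 5 CPM, 3742 on the 24 libraries alone, and 3153 to 3384 when each library was left out. Its excess of higher calls, 1890 against 1568 lower, shrank to 1757 against 1712 with median-ratio scaling and turned to 1619 against 1673 without WT vehicle 2 h replicate 2. At 8 h DESeq2 called 2937 higher and 2990 lower. Replicate numbers were not taken as pairs, since the labels give no shared source and not every correlation of same-numbered libraries exceeded 0.1. Of these 71 of 84 did (lowest -0.122), and within a genotype 34 of 36. Set against the other groups of their genotype, 22 of 24 libraries correlated best on average with their own number. Libraries of 1 number in a genotype thus shared some variation, which the main fit leaves out. With the number as a replicate block there were 4004 calls, which held all 3458, and with a replicate block within genotype 4118, which held 3455, and 269 genes extended down. At an adjusted p of 0.01 there were 252 genes extended up, 92 extended down, 73 faded down, 13 reversed up to down and 30 reversed down to up. At a difference of at least 1 on the log2 scale there were 127 appeared up, 175 appeared down, 94 extended up, 36 extended down, 5 faded up, 3 faded down, 8 reversed up to down and 10 reversed down to up, since fewer genes meet that limit by construction. Differences near 0 that were not called changed sign. Fos had -0.0093 with DESeq2, -0.0092 with median-ratio scaling, -0.0013 on the 24 libraries alone and -0.0048 without KO vehicle 24 h replicate 2, and -0.0877 to 0.0903 when each library was left out. Leaving out each library gave -0.0752 to 0.181 for Nfkbia and -0.241 to 0.0252 for Egr1. The cause was not tested. The named genes had 5432 values on the same side of the threshold and 33 that lost a call. The lost calls were of Ddit4, Myc, Lyve1 and Ndufs3, a gene of the oxidative phosphorylation list called in 14 of 24 fits that left out 1 library. A further 2 values gained a call (Ccl2 and Sgk1) and 16 changed sign. When each library was left out, interferon-stimulated genes with a lower effect at 8 h numbered 12 to 19, ribosome biogenesis genes 12 to 16, and receptor targets with a higher effect 16 to 19. List counts that moved by over 1.5 times are given beside them above, and those of oxidative phosphorylation (0 to 2 higher, 2 to 4 lower) and of higher Bcl2 family genes (1 to 3) did so too. Genes under a few CPM in vehicle, such as Lyve1 and Angptl7, have wide errors. In the simulation 62.7% of differences of 0.5 on the log2 scale were called, so that smaller ones could be missed. It changed far fewer genes than were called in the data, so that share need not hold for the data.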
